A study of Mus musculus with 2 samples.

Results

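The choroid plexus is the epithelium inside the brain ventricles that secretes the cerebrospinal fluid. Its cells are joined by tight junctions, and they move sodium, chloride, bicarbonate and water from the blood side to the ventricle. They do so through channels and transporters placed on one face of the cell or the other. The same cells carry folate, sulfate, iron and other solutes into the fluid. The genes described here encode such membrane proteins: the potassium channel subunits Kcnj13 and Kcne2, the chloride channel family member Clic6, the water channel Aqp1, the bicarbonate cotransporter Slc4a5, the sulfate cotransporter Slc13a4, the folate receptor Folr1, the tight junction protein Cldn2 and the metalloreductase family member Steap1. These 9 genes, of 18193 measured, were read on every probe set annotated to one of them alone, which gave 12 of 34945 probe sets. Probe sets are groups of short probes for a transcript, and their values are log2 signals. The genes were picked from results of these same arrays, on their difference between the genotypes and their known place in the choroid plexus, so the differences are a description and carry no test. Levels are given as log2 signals and differences as P4H-TM KO minus WT on that scale.

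RNA came from cortical tissue of naive C57BL/6J mice aged 2.5 months, either wild-type (WT) or P4H-TM knockout (KO), which lack the transmembrane prolyl 4-hydroxylase that acts on the hypoxia-inducible factor HIF. By the study's methods the animals were male littermates. The RNA of 4 mice was pooled on 1 array for each genotype, so there are 2 arrays in all, no spread between animals is known, and no p-value, SD or SE between animals can be given. The targeted gene P4htm had levels of 11.05 and 9.71 on its 2 probe sets in WT. In the array labelled knockout they were 9.10 and 8.07, lower on both, but it was not examined whether the probes fall in the part of the gene that the knockout removes.

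In the P4H-TM KO array all 9 genes were above their WT level, by 1.91- to 4.63-fold on the brightest probe set of each gene, with a median log2 difference of 1.72, or 3.29-fold. The median over all 18193 genes was 0.00, and the middle 90 percent of genes lay between −0.26 and 0.24. All 9 genes were at least 1.5-fold higher, and 7 of them at least 2-fold. Of all genes, 46.0% were higher at any size, 0.61% by at least 1.5-fold and 0.181% by at least 2-fold. Because the genes were picked with this difference in view, nothing is read from the contrast with that background. Kcnj13, Kcne2 and Folr1 had the 3 largest differences of all genes, 7 of the 9 genes were among the 20 largest, and Slc13a4, the lowest of them, ranked 39. In bulk tissue, more cells of a type and more RNA per cell cannot be told apart.

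**Figure D1:**
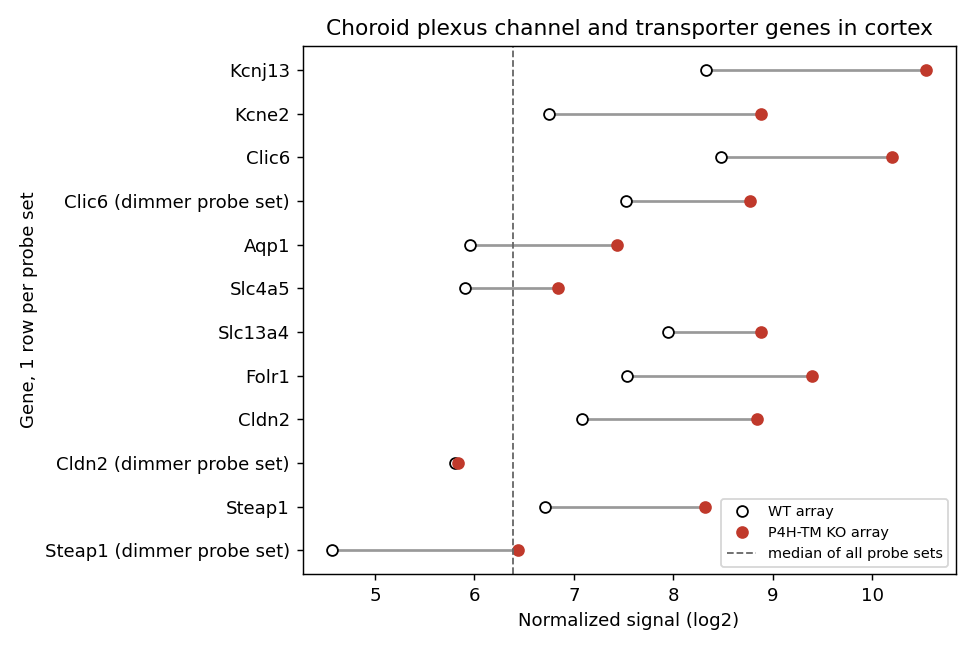
Normalized log2 signal (horizontal axis) of each of the 12 probe sets in the WT array (open circles) and the P4H-TM KO array (red), 1 row per probe set, with a dashed line at the median of all probe sets, 6.385. There is 1 array per genotype and so no error bar. The red point lies to the right of the open circle in every row, and the dimmer Cldn2 probe set has its points almost on top of each other, at 5.80 and 5.83.

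The potassium channel subunits had the widest differences. Kcnj13 encodes an inwardly rectifying potassium channel of the apical membrane, the face toward the ventricle, and its only probe set, 1456418_at, was at 8.33 in WT and 10.54 in the P4H-TM KO array. The log2 difference was 2.21, or 4.63-fold. Kcne2 encodes a single-pass subunit that joins voltage-gated potassium channels and alters their gating, and its only probe set, 1449421_a_at, was at 6.75 in WT and 8.88 in the P4H-TM KO array. The difference was 2.13, or 4.38-fold, and it lay 0.08 below that of Kcnj13. Both genes were above the median of all probe sets on both arrays. Kcnq1 and Kcna3 encode pore-forming subunits that Kcne2 is known to join. They were below that median on both arrays, Kcnq1 at 5.59 in WT and 5.34 in the P4H-TM KO array, and Kcna3 at 5.52 on each.

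The 250 bases before an annotated start of each of these 2 genes are shown. They were chosen because they hold the only ACGTG cores found before the start of the members with a sequence at hand. ACGTG is a core of the element that HIF binds. The sequences are from RefSeq, build GRCm38.p6, read 5′ to 3′ on the strand of the gene, with the matched letters in capitals. Both matches are in the reverse orientation and so read as CACGT. The Kcnj13 sequence lies on the minus strand at chr1:87394730-87394979, and its match begins 197 bases before the start. The Kcne2 sequence lies on the plus strand at chr16:92292139-92292388, and its match begins 39 bases before the start. The other annotated start of Kcne2 has no ACGTG in the bases before it.
Kcnj13: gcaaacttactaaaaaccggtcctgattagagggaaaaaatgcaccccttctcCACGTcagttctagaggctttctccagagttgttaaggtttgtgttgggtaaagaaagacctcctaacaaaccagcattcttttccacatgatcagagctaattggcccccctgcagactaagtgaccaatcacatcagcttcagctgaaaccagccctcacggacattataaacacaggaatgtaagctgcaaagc
Kcne2: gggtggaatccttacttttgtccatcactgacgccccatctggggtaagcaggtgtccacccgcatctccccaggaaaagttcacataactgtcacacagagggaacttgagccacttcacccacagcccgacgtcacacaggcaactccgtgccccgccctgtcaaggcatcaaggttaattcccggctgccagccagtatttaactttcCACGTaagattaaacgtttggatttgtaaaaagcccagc
RefSeq windows of 300 bases, which run from 250 before to 50 after a start, were at hand for 7 of the 9 genes, with 8 windows because Kcne2 has 2. On either strand, ACGTG occurred in 2 of these 8 windows and in 19.6% of 32851 windows of all genes. GCGTG, the other core searched, occurred in 1 of the 8, in Steap1 after the start, and in 32.4% of all. Either core occurred in 3 of the 8 windows and in 43.8% of all. TAATCC, letters bound by the choroid plexus transcription factor OTX2, occurred in 0 of the 8 and in 7.06% of all, which says only that these letters are not in these windows.

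Clic6 and Aqp1 carry chloride and water in the wider family sense. Clic6 belongs to the chloride intracellular channel proteins, and its brighter probe set, 1454866_s_at, was at 8.48 in WT and 10.20 in the P4H-TM KO array, a log2 difference of 1.72. Its other probe set, 1434165_at, was at 7.52 and 8.77, a difference of 1.25. Both probe sets were higher in P4H-TM KO, with a gap of 0.47 between their differences. Aqp1 encodes the apical water channel through which much of the fluid is thought to pass, and its only probe set, 1416203_at, was at 5.96 in WT and 7.43 in the P4H-TM KO array. Its difference was 1.47, or 2.77-fold, and only the P4H-TM KO value was above the median of all probe sets.

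On the brightest probe sets, the anion cotransporters had the smallest differences of the 9. Slc4a5 encodes an apical sodium bicarbonate cotransporter, and its only probe set, 1435420_at, was at 5.90 in WT and 6.84 in the P4H-TM KO array, a difference of 0.94. Slc13a4 encodes a sodium-dependent sulfate transporter, and its only probe set, 1433734_at, was at 7.95 and 8.88, a difference of 0.93. The 2 differences were 0.01 apart, at 1.92- and 1.91-fold. Slc4a5 was above the median of all probe sets in P4H-TM KO only, and it is the one gene of the 9 whose mean signal fell short of that median.

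Folr1 encodes the membrane-anchored folate receptor that takes folate across the epithelium, and its only probe set, 1450995_at, was at 7.53 in WT and 9.40 in the P4H-TM KO array. The log2 difference was 1.87, or 3.66-fold. Slc19a1 and Slc46a1, which encode the other main folate carriers, were at 8.94 and 9.11 (Slc19a1) and at 6.44 and 6.63 (Slc46a1) in WT and P4H-TM KO, differences of 0.17 and 0.19. Both carriers were within 1.5-fold between the arrays.

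Cldn2 encodes a claudin that makes tight junctions permeable to cations and water, and its probe sets did not behave alike. The brighter one, 1417231_at, was at 7.08 in WT and 8.84 in the P4H-TM KO array, a difference of 1.76. The dimmer one, 1417232_at, was at 5.80 and 5.83, a difference of 0.03, and lay below the median of all probe sets on both arrays. The average of both differences was 0.895. Steap1 belongs to a family of membrane metalloreductases that handle iron and copper, although the activity of Steap1 itself is less certain. Its brighter probe set, 1451532_s_at, was at 6.71 in WT and 8.32 in the P4H-TM KO array, a difference of 1.61, and its dimmer one, 1424938_at, was at 4.57 and 6.44, a difference of 1.87. Both Steap1 probe sets were higher in P4H-TM KO. Of the 12 probe sets of the 9 genes, 11 were at least 1.5-fold higher, against 0.495% of all probe sets with 1 symbol, and the dimmer one of Cldn2 was the exception.

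**Figure D2:**
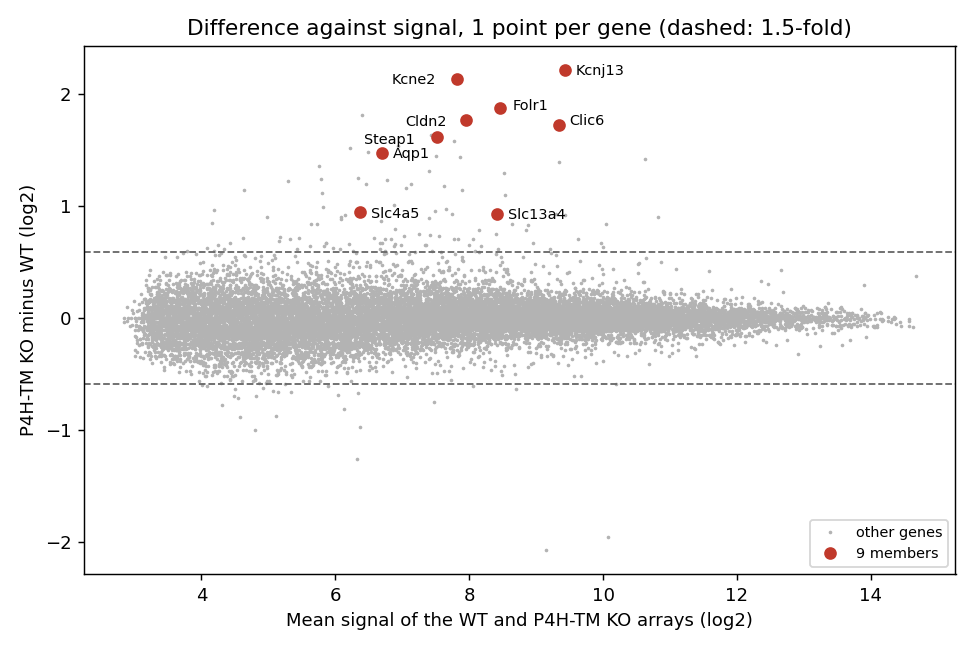
Log2 difference, P4H-TM KO minus WT (vertical axis), against the mean log2 signal of both arrays (horizontal axis), 1 point per gene, with the 9 choroid plexus genes in red, 18184 other genes in grey and dashed lines at 1.5-fold. The red points lie between 0.93 and 2.21, all above the upper dashed line.

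On the brightest probe sets, the order of the differences was Kcnj13, Kcne2, Folr1, Cldn2, Clic6, Steap1, Aqp1, Slc4a5 and Slc13a4. The only yardstick that these arrays give is the spread between probe sets of a gene, a pooled SD of 0.10 on the log2 scale over 5101 genes with several probe sets of sufficient signal, which corresponds to 0.14 for the gap between a pair of differences. This spread says nothing of how animals vary. By it, 6 of the 8 gaps between neighbours in the order were within 1 SD, at 0.01 to 0.14. The wider gaps were those between Kcne2 and Folr1, 0.26, and between Aqp1 and Slc4a5, 0.53. For Clic6, whose probe sets both had sufficient signal, the gap between them was 0.47, wider than this yardstick. The gaps were 1.73 for Cldn2 and 0.26 for Steap1. There the dimmer probe sets, with mean signals of 5.815 and 5.505, were too low to be part of the yardstick. The order below Kcne2 thus depends on the probe set. With probe sets averaged, Steap1 at 1.74 was above Clic6 at 1.485, and Cldn2 at 0.895 came last, below Slc13a4 at 0.93. On the brightest probe sets the range from Slc13a4 to Kcnj13 was 1.28 on the log2 scale, so the folds themselves differed by up to 2.43 times.

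Each of the 9 genes has relatives in a family of related proteins, and most relatives were within 1.5-fold between the arrays. Of 69 paralogs measured in the 9 families, 65 were within 1.5-fold, 3 were higher by that much and 1 was lower. Of all genes, 0.61% were at least 1.5-fold higher and 0.148% at least 1.5-fold lower. The median log2 difference of the paralogs was −0.08, with 25 higher, 42 lower and 2 equal. Of all genes, 46.0% were higher at any size and 49.0% lower. In all 9 families the choroid plexus gene had the largest difference, which its selection favours. Only 30 of the 69 paralogs reached the median of all probe sets on an array, so many have little signal in this tissue.

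**Figure D3:**
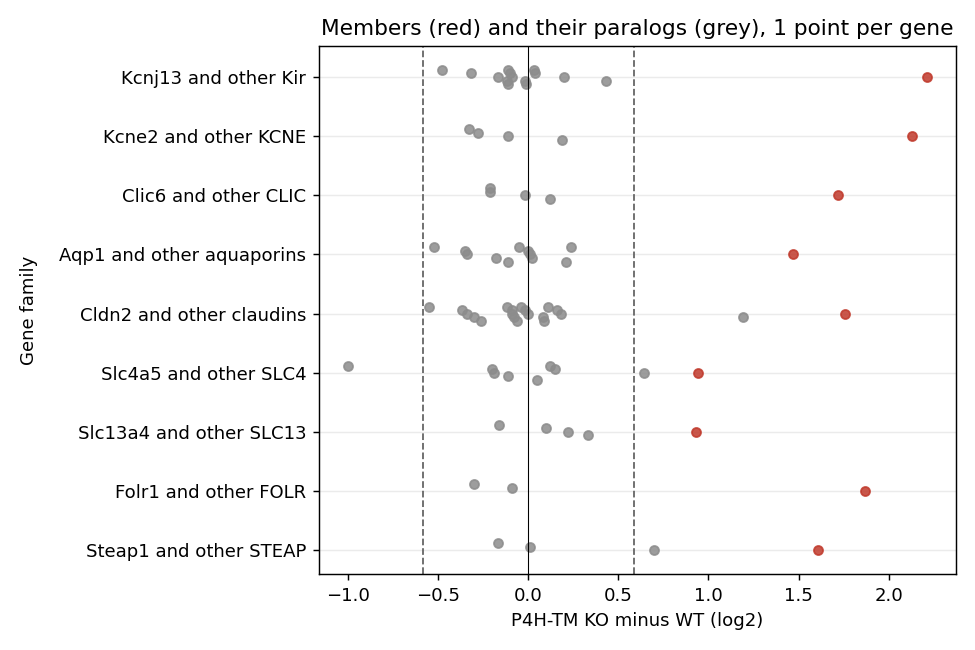
Log2 difference, P4H-TM KO minus WT (horizontal axis), of each of the 9 choroid plexus genes (red) and of its measured paralogs (grey), 1 point per gene and 1 row per family, with dashed lines at 1.5-fold. The red point is the rightmost of each row, and the grey points beyond the right dashed line are Cldn1, Slc4a2 and Steap2.

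None of 14 other inwardly rectifying (Kir) channel genes was 1.5-fold different, and they ranged from −0.48 to 0.43. Kcnj16, a subunit found in astrocytes and in kidney, was highest, at 7.49 in WT and 7.92 in the P4H-TM KO array. Kcnj9, a G protein-gated neuronal subunit, was at 8.55 and 8.75, and Kcnj6 and Kcnj3 of the same kind differed by −0.11 and −0.12. Among 4 other KCNE genes, Kcne4 alone reached the median of all probe sets, at 6.63 and 6.82, a difference of 0.19. No relative among these potassium channel genes came near the difference of Kcnj13 or Kcne2, which the selection of these 2 genes favours.

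In the CLIC family, Clic1 differed by 0.12 and Clic4 by −0.21, and none of 4 relatives of Clic6 was 1.5-fold different. Among 11 other aquaporins, Aqp4, the water channel of astrocyte endfeet, was at 11.61 on both arrays, and Aqp11 was at 8.09 in WT and 8.04 in the P4H-TM KO array. The others were below the median of all probe sets on both arrays. Aqp1 was thus the one aquaporin with a difference of 1.5-fold.

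Of 19 other claudin genes, Cldn1, a barrier-forming claudin that the choroid plexus also uses, was at least 1.5-fold higher, at 5.86 in WT and 7.05 in the P4H-TM KO array, a difference of 1.19. Its 4 probe sets ranged from −0.13 to 1.19, and their average, 0.2775, was below 1.5-fold. Cldn5, the claudin of brain endothelium, differed by 0.11. Cldn11, the claudin of myelin, was at 11.56 and 11.22, a difference of −0.34, and Cldn22 differed by −0.26. Cldn3, which is also counted among the epithelial junction genes below, was at 7.41 in WT and 7.39 in the P4H-TM KO array, a difference of −0.02. The remaining claudins lay between −0.55 and 0.18.

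Among 8 other SLC4 genes, the anion exchanger gene Slc4a2, which acts on the blood-facing side of the epithelium, was at 7.86 in WT and 8.50 in the P4H-TM KO array, a difference of 0.64. Slc4a1, the anion exchanger of red blood cells, was at 5.30 and 4.30, a difference of −1.0 at a signal below the median of all probe sets. Slc4a4 and Slc4a11 differed by −0.11 and −0.19, and Slc4a8 by 0.15. Of the 4 relatives of Slc13a4, the citrate transporter gene Slc13a5 differed by 0.33 on its brighter probe set and −0.52 on the other, and Slc13a3 by 0.10. Folr2, a folate receptor gene of macrophages, differed by −0.09, and Izumo1r, an egg cell relative, by −0.30.

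Steap2, a metalloreductase gene, was at 7.70 in WT and 8.40 in the P4H-TM KO array, a difference of 0.70. All 5 of its probe sets were higher, by 0.53 to 0.79. Steap3 and Steap4 differed by 0.01 and −0.17, below the median of all probe sets on both arrays. Steap2 also lies beside Steap1 on chromosome 5. Of 18 nearest measured genes on either side of the 9, Steap2 was the 1 that was at least 1.5-fold higher, and none was lower by that much. Of all genes, 0.61% and 0.148% were so. The median difference of the 18 neighbours was 0.005. The neighbour at the other side of Steap1, Tex47, was at 4.58 and 4.00, a difference of −0.58 at low signal.

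Kcne2 and Clic6 lie on the same stretch of chromosome 16, with 7 measured genes between them. These 7 differed by −0.36 to 0.17, and none was 1.5-fold different. Among them were Smim11 next to Kcne2, at 9.22 in WT and 9.28 in the P4H-TM KO array, and Rcan1, at 9.86 and 9.89. Outside the pair, Mrps6 differed by 0.32 and Runx1 by −0.07. Kcnj13 overlaps Gigyf2 on chromosome 1, and Gigyf2 was at 9.28 and 9.33, with −0.09 to 0.13 over its 4 probe sets. Folr1 is next to Folr2 and Anapc15, each of which differed by −0.09.

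**Figure D4:**
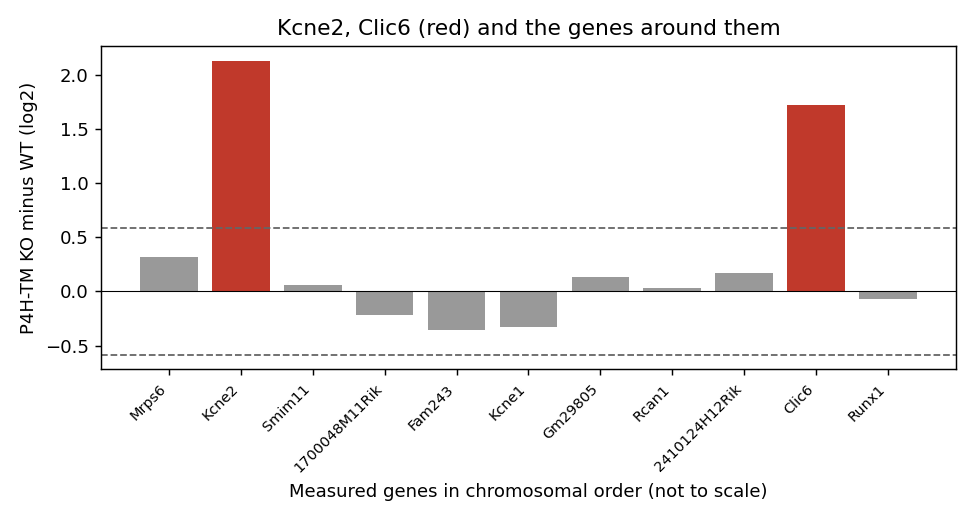
Log2 difference, P4H-TM KO minus WT (vertical axis), of Kcne2 and Clic6 (red bars), the 7 measured genes between them and the next gene outside (grey bars), in chromosomal order and not to scale, with dashed lines at 1.5-fold. The red bars reach 2.13 and 1.72, and the grey bars stay between −0.36 and 0.32.

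Fluid secretion needs further transporters, many of which neurons and glia use as well. In a list of 21 measured genes for ion transport by the choroid plexus, 2 were higher by at least 1.5-fold and none lower, beside 0.61% and 0.148% of all genes. Of the 21 genes, 13 were higher at any size, 7 lower and 1 equal, beside 46.0% higher and 49.0% lower of all genes. The median difference of the list was 0.12 beside 0.00 for all genes, with a range from −0.25 to 0.99. The 2 genes were Slc4a2 and the calcium-permeable channel gene Trpv4, at 5.32 in WT and 6.31 in the P4H-TM KO array, a difference of 0.99 below the median of all probe sets. Car12, a membrane carbonic anhydrase gene, was at 8.12 and 8.69, a difference of 0.57 that fell short of 1.5-fold and that was −0.09 on another probe set. Atp1b1, a subunit of the sodium pump, was at 14.27 and 14.24, and Slc12a2, the sodium, potassium and chloride cotransporter, was at 12.14 and 12.05. Slc5a3, an inositol transporter that associates with potassium channels, differed by 0.48, and the potassium channel gene Kcna1 and the kinase gene Wnk1 by −0.12 and −0.13.

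In a list of 24 measured genes for the transport of organic solutes and metals, 2 were at least 1.5-fold higher and none lower. Of all genes, 0.61% and 0.148% were so, and the median of the list was 0.04. Slc2a12, a glucose transporter gene, was at 7.02 in WT and 7.97 in the P4H-TM KO array, a difference of 0.95 that was 0.23 on its other probe set. Slc31a1, the copper importer gene, was at 7.19 and 7.92, a difference of 0.73, with 0.55 on its other probe set. Slc2a1, the glucose transporter of the blood-brain barrier, and Tfrc, the transferrin receptor, differed by −0.19 and −0.26. Of 17 measured genes of epithelial junctions, 1 was at least 1.5-fold higher, Cldn1, and none lower, beside the same shares of all genes. The median of this list was 0.07. Cgn, which encodes cingulin, a protein of the tight junction plaque, differed by 0.50, and Cldn12 and Cldn10 by −0.08 and −0.09.

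Other markers of the choroid plexus differed in the same direction. Of 19 measured markers that are not among the 9 genes, 13 were at least 1.5-fold higher and none lower. Of all genes, 0.61% and 0.148% were so, and the median difference of the markers was 0.93. The list was written with earlier results of these arrays known, so these counts carry no test. Otx2, a transcription factor of this epithelium, was at 6.62 in WT and 8.25 in the P4H-TM KO array, and F5, coagulation factor V, was at 6.98 and 8.56. Ttr, the secreted thyroid hormone carrier, was at 14.49 and 14.86, near the upper end of the scale at 14.91, and Trpm3, a cation channel gene also used by other brain cells, at 10.04 and 10.12. The 4 probe sets of Ttr differed by 0.37 to 0.96, and the 6 probe sets of Trpm3 by 0.08 to 1.38. Summed on the linear scale, the 19 markers gave 28705 in WT and 40783 in the P4H-TM KO array, a sum in which Ttr weighs most. No value on these arrays is 0, and the lowest marker was Lmx1a, at 3.80 and 3.72. The share of these markers in the differences of the 9 genes was not tested.

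Markers of tissues next to the cortex were examined beside them, in lists also written with earlier results of these arrays known. All 12 meningeal markers were above their WT level, 5 of them by at least 1.5-fold, beside 46.0% and 0.61% of all genes. Their median difference was 0.405, with summed linear signals of 3413 and 5276. Dcn, a matrix proteoglycan gene, was at 10.37 in WT and 11.27 in the P4H-TM KO array, with 0.10 on its other probe set, and Ogn and Col3a1 differed by 0.70 and 0.65. The other 2 of the 5, Slc47a1 at 4.53 and 5.43 and Crabp2 at 5.30 and 5.94, were below the median of all probe sets on both arrays, which leaves 3 above it. With probe sets averaged the count was 3 as well. The lowest differences were those of Slc6a13 and Col1a1, 0.22 and 0.10. Of 12 markers of the ependyma, the ciliated lining of the ventricles, none was 1.5-fold different, with a median of −0.075 and sums of 2879 and 2606. Ccdc153 and Tmem212 differed by −0.43 and −0.47, and Rsph1 and Rsph4a by 0.20 and 0.16. Of these 12 markers, 3 were higher in P4H-TM KO, 8 lower and 1 equal, beside 46.0% higher and 49.0% lower of all genes.

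Markers of the labelled tissue were present. All 11 measured markers of cortical neurons were above the median of all probe sets on both arrays, with WT values from 8.45 to 14.13 and a median difference of −0.02. Their summed linear signals were 72826 in WT and 71133 in the P4H-TM KO array. Fezf2 and Cux2, layer-specific transcription factors, differed by 0.16 and 0.05, and Tbr1 and Neurod6 by −0.09 and −0.17. The 9 measured markers of oligodendrocytes were all below their WT level, as were 49.0% of all genes, none of them by 1.5-fold, with a median of −0.25 and sums of 78228 and 69305. Mbp and Ugt8a differed by −0.08 and −0.16, and Cldn11 and Opalin by −0.34 each, with −0.58 on the other probe set of Opalin. The part of these tissues in the differences of the 9 genes was not tested.

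**Figure D5:**
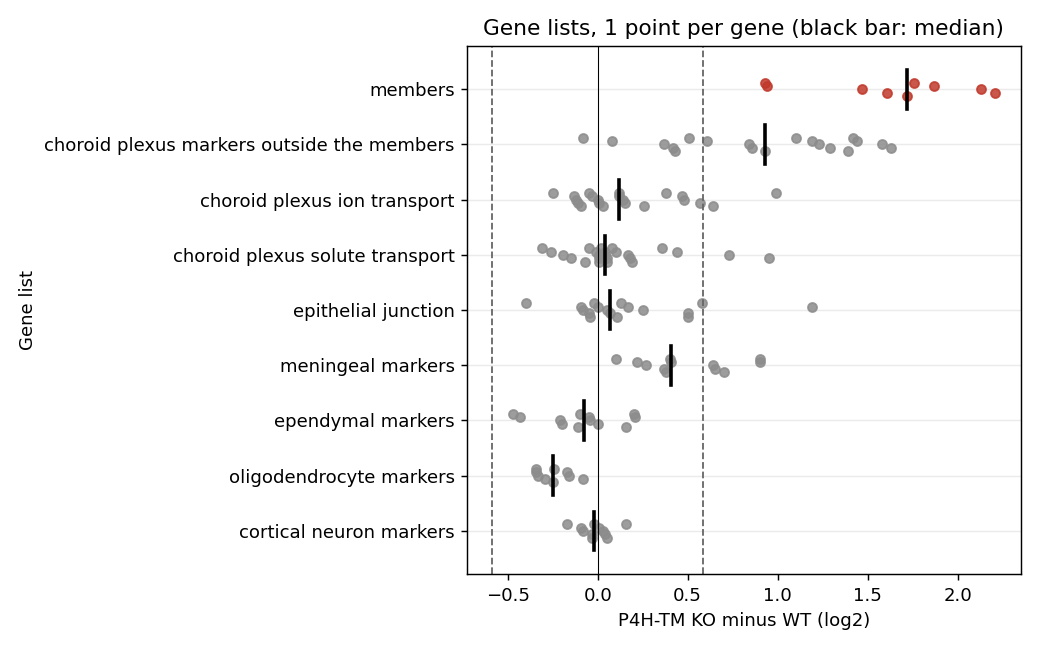
Log2 difference, P4H-TM KO minus WT (horizontal axis), 1 point per gene, for the 9 choroid plexus genes (red) and for the gene lists named on the vertical axis (grey), with a black bar at the median of each list and dashed lines at 1.5-fold. The medians are 1.72 for the 9 genes, 0.93 for other choroid plexus markers, 0.405 for meningeal markers and between −0.25 and 0.12 for the other lists.

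Outside the 9 genes, the genes whose difference lay closest to their median of 1.72 were Otx2 and Defb11, each 0.09 away, then F5, Prr32 and Fap. Likeness here is only the gap between log2 differences over 2 arrays, taken among genes above the median of all probe sets in P4H-TM KO. Defb11, Prr32 and Fap were below that median in WT and passed through the P4H-TM KO array alone, so the filter itself favours genes that are higher there. Defb11, a defensin gene, was at 5.49 in WT and 7.30 in the P4H-TM KO array, a difference of 1.81. Prr32 was at 6.17 and 7.70, and Fap, a cell surface protease gene of fibroblasts, at 5.46 and 6.97.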

How the data were processed

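Cortical RNA of 4 mice was pooled per genotype and hybridized to 1 Affymetrix mouse genome array each. The authors read the scans with the GeneChip Operating System, then used GenePattern for normalization, and the submitters' processing notes name RMA, whose version is not given in the sources used here. The deposited values are log2 signals rounded to 2 decimals, from 2.69 to 14.91, with array medians of 6.38 and 6.39. RMA compresses differences at low signal, so folds of dim probe sets may be too small, and the number of arrays limits the precision.

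Probe sets were named from the platform annotation, with symbols updated by gene ID in the RefSeq table of GRCm38.p6, which also gave the order of genes; 64 control probe sets and those with several symbols or none were left out, and 0 probe sets with several symbols named a member. Each gene took its probe set with the highest mean signal. No filter on low signal was used for counts, and 8 of the 9 genes had a mean signal of 6.385 or more, the median over the whole table. The calculations were tested on simulated data.

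The members and the 18 other lists were chosen with earlier results of these data known, from general knowledge. Named genes were P4htm, the members, the 2 highest and 2 lowest of each list among genes with an array at or above 6.385, the nearest measured neighbours and the 5 most alike genes. Kcnq1, Kcna3, Slc19a1, Slc46a1, Slc12a2, Atp1b1, Slc5a3, Trpv4, Slc4a1, Cldn3, Lmx1a, Izumo1r, Steap3, Steap4, Col3a1, Slc47a1, Crabp2 and Rcan1 fall outside this rule and were added with their values known. The alternatives tried were averaged, highest or lowest probe sets, leaving out those that can match other transcripts, arrays centred on their medians, a loess (span 0.3) subtracted from the differences, a signal filter, raised low values and a 2-fold threshold. Versions were 3.11.15 for Python, 2.4.6 for numpy, 2.3.3 for pandas, 0.14.6 for statsmodels and 3.10.9 for matplotlib.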

Additional observations from a re-analysis of the deposited data

How the results depend on the processing

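No paired analysis was possible because each genotype has 1 array, and for the same reason no array could be left out. Under 9 alternatives, the count of 9 genes at least 1.5-fold higher was 8 or 9 wherever that threshold was kept. With the signal filter only 8 genes remained, and all 8 passed. At the 2-fold threshold 7 of the 9 genes passed. Averaging the probe sets of a gene took their median from 1.72 to 1.485, and taking the probe set with the lowest difference took it to 1.47; it was 1.71 to 1.76 otherwise. Of 63 alternatives to single genes, all were above 0 and 61 at least 1.5-fold; the exceptions were Cldn2 at 0.03 on its dimmer probe set, and Slc4a5 at 0.455 with values below the median raised to it, a setting chosen after the data were seen, under which Aqp1 was at 1.045. Among all genes, 111 higher and 27 lower at 1.5-fold became 33 and 4 at 2-fold, and 74 and 6 above the signal filter. List medians stayed within the pooled SD in 77 of 84 alternatives; those of the KCNE, SLC4, SLC13, STEAP and cortical neuron lists did not keep their sign. List counts at 1.5-fold stayed within 1.5 times in 78 of 85 alternatives. The others were 3 meningeal markers in place of 5, with probe sets averaged or above the signal filter, 0 junction genes and 0 claudins in place of 1 each with probe sets averaged, 2 junction genes after the loess, 1 ion transport gene in place of 2 above the signal filter, and 1 solute transport gene in place of 2 once probe sets open to cross-matching were dropped.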
